A study of Mus musculus with 18 samples.

Results

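Malat1, Neat1, Meg3, Rian, Miat and Snhg11 are long non-coding RNAs, long transcripts that encode no protein. Every probe set of the array annotated to 1 of these 6 genes was taken, each on its own, which gave 28 of the 45101 probe sets measured. Malat1 had 7 of them, Neat1 2, Meg3 11, Rian 4, Miat 2 and Snhg11 2. C57BL/6J male mice, 14 weeks old, were given 5 daily intraperitoneal injections of MPTP at 30 mg/kg or of saline, and were killed 4 days after the last one. MPTP is a neurotoxin whose metabolite enters dopaminergic neurons and damages them. Frontal cortex, striatum and midbrain of 3 MPTP-treated and 3 saline-treated animals were measured on Affymetrix arrays, 18 in all, in 6 groups of 3.

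Malat1 is an abundant nuclear RNA that accumulates in nuclear speckles, bodies rich in splicing factors. Neat1, its neighbour on chromosome 19, is the scaffold around which paraspeckles assemble. Meg3 and Rian are transcribed from the maternal chromosome of the imprinted Dlk1-Dio3 region on chromosome 12, Miat (also named Gomafu) is a nuclear RNA of neurons, and Snhg11 is a small nucleolar RNA host gene.

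For 5 of the 6 genes, 6 promoters were found in RefSeq (build GRCm38.p6), each as 250 bases before and 50 bases after the annotated start. The 3 below belong to Malat1, Meg3 and Miat. Malat1 was the RNA that differed with MPTP in single regions, the Meg3 probe sets split into unlike patterns, and Miat differed most between regions. Malat1 (chr19:5802623-5802922, minus strand) had 47% G and C and 10 CpG, Meg3 (chr12:109540746-109541045, plus strand) had 53.7% and 13, and Miat (chr5:112228899-112229198, minus strand) had 64.3% and 25. The median of the 32851 promoters in the table was 52.7% and 7 CpG. Capitals mark matches to TGACGTCA (the cAMP response element), GGGCGG (the GC box), TATAAA (the TATA box) or TGACG, on either strand.
Malat1: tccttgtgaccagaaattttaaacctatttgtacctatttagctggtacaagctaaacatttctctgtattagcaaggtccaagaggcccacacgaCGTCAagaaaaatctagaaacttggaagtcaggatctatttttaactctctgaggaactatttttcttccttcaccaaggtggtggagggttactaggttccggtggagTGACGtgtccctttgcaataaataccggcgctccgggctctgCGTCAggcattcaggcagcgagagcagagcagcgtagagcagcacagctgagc
Meg3: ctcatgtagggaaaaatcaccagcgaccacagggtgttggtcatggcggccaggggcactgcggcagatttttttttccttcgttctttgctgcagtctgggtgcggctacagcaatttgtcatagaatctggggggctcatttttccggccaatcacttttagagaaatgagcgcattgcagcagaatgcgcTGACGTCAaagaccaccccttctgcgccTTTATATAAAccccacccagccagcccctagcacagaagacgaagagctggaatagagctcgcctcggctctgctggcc
Miat: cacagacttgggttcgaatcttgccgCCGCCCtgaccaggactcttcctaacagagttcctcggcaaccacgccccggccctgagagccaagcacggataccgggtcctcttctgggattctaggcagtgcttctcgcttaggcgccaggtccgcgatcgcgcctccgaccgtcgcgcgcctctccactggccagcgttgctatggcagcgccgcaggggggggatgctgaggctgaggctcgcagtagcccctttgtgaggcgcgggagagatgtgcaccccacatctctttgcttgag
The table gave 2 starts for Meg3, of which the upstream one is shown, and the other (chr12:109545148-109545447, plus strand, 50.3% G and C, 1 CpG) held no match to any motif searched. The upstream Meg3 promoter held TGACGTCA, which began 57 bases before the start and was present in 1.79% of all promoters, and 2 overlapping TATAAA matches, a motif found in 13.6%. The Miat promoter held 1 GGGCGG match, found in 35.7%. The Malat1 promoter held 3 copies of TGACG, the core of the cAMP response element, which was searched only after these letters had been seen. At least 1 copy was present in 20.8% of all promoters and 3 or more in 1.03%. The TGACG copies of Meg3 lie inside its TGACGTCA. CACGTG (the E-box, in 7.15%), TGANTCA (the AP-1 site, in 7.81%) and the glucocorticoid response element (in 0.475%) had no match in these 3 windows. A match is a string of letters and not a measured site.

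Values are log2 expression summaries per probe set, so that a difference of 1 is a doubling. The array medians lay between 5.14 and 5.21. Probe sets were tested where a region mean, over its 6 arrays, was 5.18 or more (the median over the whole table), and were called at an adjusted p under 0.05 (limma with Benjamini-Hochberg adjustment over all 23992 probe sets tested). Of the 28 probe sets, 27 passed, and the second Neat1 probe set, 1442881_at, did not, with group means of 4.84 to 5.05. Marker genes followed the labelled regions. The summed linear level of 5 striatal markers was 10671 to 11651 on saline striatum arrays and at most 619 on the other saline arrays, and that of 6 midbrain markers was 3337 to 4425 on saline midbrain arrays and at most 302 elsewhere in saline animals. For 3 cortical glutamatergic markers the sum was 1538 to 1700 in saline frontal cortex and 217 to 452 in saline striatum. In MPTP striatum it was 52 to 300, with none of the 3 called against saline striatum. The part of cortical tissue in the striatal values was not tested. In midbrain, the dopaminergic markers Th and Slc6a3 differed by -0.82 and -0.37 between MPTP and saline, with adjusted p of 0.11 and 0.18, and neither was called. Pitx3, a dopaminergic transcription factor, lay below the filter value in all groups.

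Malat1 was higher in MPTP than in saline frontal cortex by 4 of its 7 probe sets, and in striatum by 3 of these 4, while none of the 4 was called in midbrain. The rises were 0.54 to 0.80 in frontal cortex and 0.39 to 0.56 in the called probe sets of striatum. The other 3 Malat1 probe sets showed no rise that passed the test in any region, and 1429060_at fell in midbrain. In frontal cortex these 4 were the only calls among the 27 probe sets, while 21 of all 23992 were called (0.0875%, of which 0.0792% higher and 0.00834% lower). In striatum the 3 calls, all higher, stood beside 1.96% called over the whole table (1.42% higher, 0.538% lower). In midbrain the 1 call, lower, stood beside 4.08% (3.45% higher, 0.625% lower), a share like that of the 27. At an unadjusted p under 0.05 there were 6, 8 and 8 of the 27 in the 3 regions, against 7.54%, 16% and 18.4% of all. In these pieces of tissue, fewer cells of a type and less RNA per cell cannot be told apart.

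The brightest Malat1 probe set, 1438403_s_at, read 12.42, 12.25 and 12.28 on the MPTP arrays of frontal cortex, against 11.56, 11.86 and 11.90 on the saline arrays. All 3 MPTP values lay above all 3 saline values. The difference was 0.54 ± 0.10 (SE, n = 3 each), or 1.46-fold, with an adjusted p of 0.028 by limma. In striatum the same probe set read 12.78, 12.46 and 12.77 with MPTP, against 12.20, 12.12 and 12.52 with saline. Here the groups overlapped, because saline replicate 3 stood above MPTP replicate 2. The difference was 0.39 ± 0.10, or 1.31-fold, with an adjusted p of 0.044. In midbrain it read 11.84, 12.06 and 11.94 with MPTP, against 12.10, 11.97 and 12.01 with saline, and the values overlapped (difference -0.08 ± 0.10, adjusted p = 0.72).

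Probe set 1418188_a_at showed the largest rise of the 7 in frontal cortex, with 10.89, 10.77 and 10.94 on the MPTP arrays against 9.99, 10.07 and 10.15 on the saline arrays. The groups were separated by more than the spread within either. The difference was 0.80 ± 0.12, or 1.74-fold, with an adjusted p of 0.012. In striatum it read 11.43, 11.12 and 11.52 with MPTP and 10.58, 10.58 and 11.23 with saline, where saline replicate 3 again stood apart from the other two and overlapped the MPTP arrays. The difference was 0.56 ± 0.12, with an adjusted p of 0.019. In midbrain the values were 10.40, 10.47 and 10.35 with MPTP and 10.59, 10.43 and 10.33 with saline, which overlapped.

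Probe set 1418189_s_at, designed from the same sequence record as 1418188_a_at, behaved in the same way. It read 11.32, 11.01 and 11.11 in MPTP frontal cortex against 10.41, 10.55 and 10.55 in saline frontal cortex, a difference of 0.65 ± 0.12 (adjusted p = 0.024). In striatum, MPTP arrays read 11.78, 11.49 and 11.76 and saline arrays 10.89, 10.99 and 11.47, and the lowest MPTP array lay just above the highest saline array (0.56 ± 0.12, adjusted p = 0.012). This was the only called Malat1 probe set of striatum whose groups did not overlap. In midbrain it read 10.77, 10.81 and 10.80 with MPTP against 10.95, 10.83 and 10.60 with saline, and both groups averaged 10.79.

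The dimmer probe set 1452378_at read 8.06, 7.90 and 7.90 in MPTP frontal cortex against 7.21, 7.29 and 7.18 in saline frontal cortex, which did not overlap. The difference was 0.73 ± 0.12, or 1.65-fold, with an adjusted p of 0.016. In striatum it read 8.28, 8.31 and 8.49 with MPTP and 7.95, 7.76 and 8.45 with saline, and the difference of 0.31 ± 0.12 was not called (adjusted p = 0.21). In midbrain it read 7.29, 7.23 and 7.09 with MPTP, all below the 7.40, 7.46 and 7.40 with saline, but the difference of -0.22 ± 0.12 was not called (adjusted p = 0.35).

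The remaining 3 Malat1 probe sets had no called rise with MPTP. The brightest of them, 1429060_at, read 9.22, 9.52 and 9.41 in MPTP frontal cortex against 9.58, 9.41 and 9.38 in saline frontal cortex, and these values overlapped. In striatum it read 9.42, 9.55 and 9.50 with MPTP and 9.75, 9.70 and 9.55 with saline (difference -0.18 ± 0.10, adjusted p = 0.40). In midbrain it read 7.90, 8.30 and 7.97 with MPTP, all below the 8.53, 8.31 and 8.42 with saline. That fall of -0.36 ± 0.10, or 1.29-fold, was called with an adjusted p of 0.040. For 1427285_s_at and 1436202_at the cortical differences were 0.06 and 0.05, the striatal ones -0.04 and -0.00 and the midbrain ones -0.25 and 0.18, none of them called. MPTP replicate 1 of frontal cortex read lowest of its group for 1436202_at, whose SD there was 0.57, against 0.10 in saline frontal cortex.

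**Figure D1:**
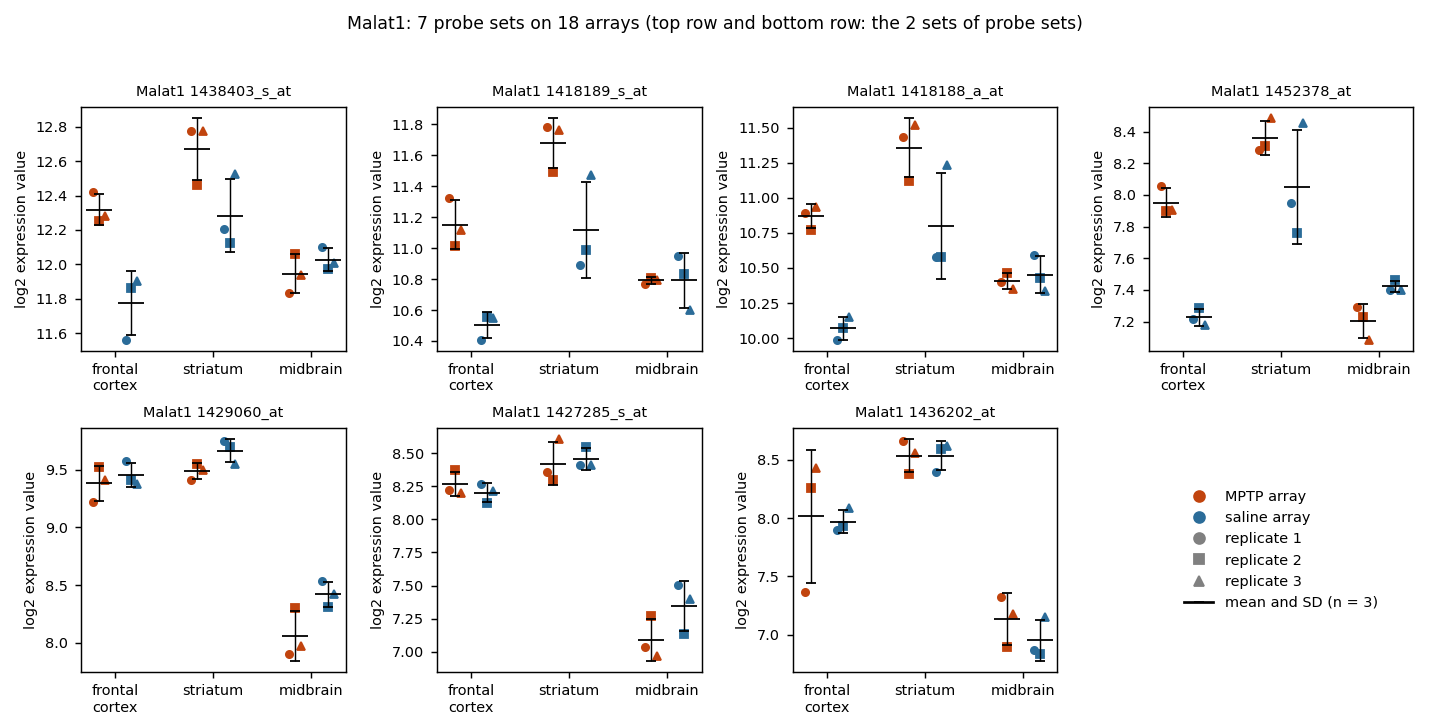
Log2 expression value of the 7 Malat1 probe sets on each of the 18 arrays by region, MPTP arrays left of saline arrays, with the mean and SD of each group (n = 3). In the 4 panels of the top row the MPTP arrays of frontal cortex lie above the saline arrays, and in the 3 panels of the bottom row the midbrain arrays lie below those of the other regions.

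Averaged over the 3 regions, the same 4 Malat1 probe sets were higher with MPTP, by 0.27 to 0.44 (adjusted p = 0.0007 to 0.016), and 1429060_at was lower (-0.20 ± 0.06, adjusted p = 0.025). These 5 were joined by 1 Snhg11 probe set, so that 6 of the 27 were called, 5 higher and 1 lower, against 10.8% of all probe sets tested (8.07% higher, 2.74% lower). At an unadjusted p under 0.05 there were 8 of the 27 (25.9% of all). Whether the response to MPTP itself differed between regions was tested as a difference of differences. For the 4 probe sets, the response in midbrain minus that in frontal cortex was -0.94 to -0.63, with unadjusted p of 1.3e-05 to 0.00059 and adjusted p of 0.16 to 0.22, none called. By limma 0 of the 27 were called in the 3 such contrasts. For striatum minus frontal cortex 0.0584% of all probe sets were called, and 3 of the 27 had an unadjusted p under 0.05 (7.39% of all). For midbrain minus frontal cortex 0% were called and 8 had an unadjusted p under 0.05 (6.79% of all), and for midbrain minus striatum 0.0584% were called and 8 had one (5.66% of all). The presence of a call in frontal cortex and its absence in midbrain was thus not accompanied by a called difference between the regions.

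The Malat1 calls in single regions depended on single arrays. In frontal cortex, leaving out saline replicate 1 or 2 or MPTP replicate 1 or 3 left 0 called Malat1 probe sets, leaving out saline replicate 3 left 1, and leaving out MPTP replicate 2 left 3. In striatum, 0 of the 3 were still called without saline replicate 1 or 2 or MPTP replicate 1 or 3, while without saline replicate 3 there were 5 calls among the 27. The fall of 1429060_at in midbrain was not called without midbrain saline replicate 1 or 3, midbrain MPTP replicate 1 or 3, or saline striatum replicate 2, which enters through the shared spread, with adjusted p of 0.052 to 0.22. For the mean over regions, 3 of the 6 calls were left without saline striatum replicate 1 or 2, when 1452378_at, 1429060_at and the Snhg11 probe set missed the threshold, and 1429060_at also missed it without any 1 of 4 MPTP arrays. Without saline striatum replicate 3, the response in midbrain minus that in frontal cortex gave 2 calls and midbrain minus striatum 3, and without saline midbrain replicate 1 the first of these gave 1, all lower. In every setting run the differences of the 4 probe sets in frontal cortex were positive, from 0.44 to 0.61 for 1438403_s_at and from 0.76 to 0.85 for 1418188_a_at.

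**Figure D2:**
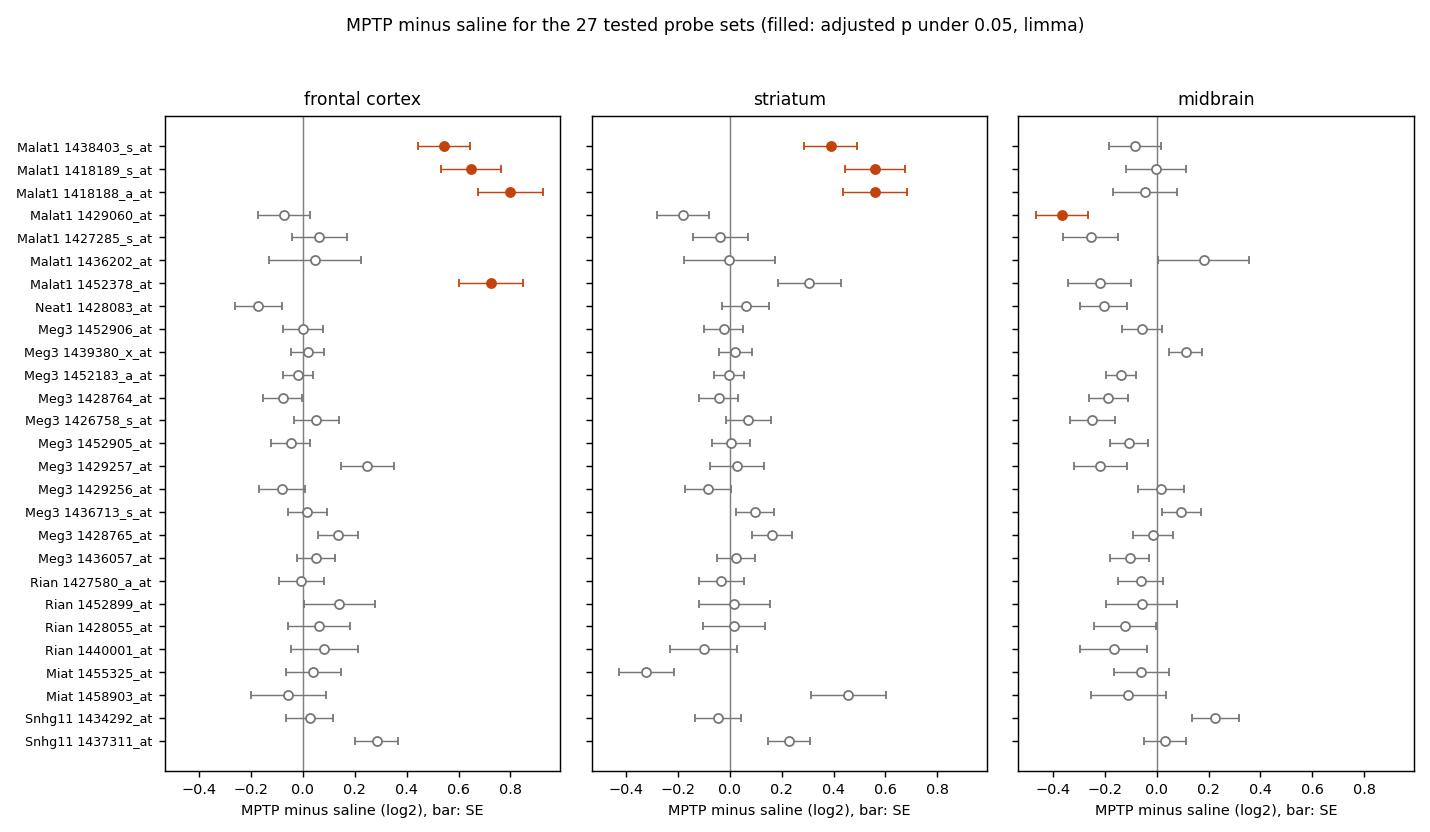
MPTP minus saline difference (log2, points) with its standard error (bars) for the 27 tested probe sets in frontal cortex, striatum and midbrain, with filled points for an adjusted p under 0.05. Malat1 has 4 filled points in the panel of frontal cortex, 3 in that of striatum and 1, below 0, in that of midbrain, and no other RNA has a filled point.

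The 7 Malat1 probe sets were split into 2 sets after the values were seen. The first set held the brightest probe set and those with a high correlation with it over the 18 arrays. Correlations within and between the sets thus follow in part from the split. The 4 of the first set, which rose in frontal cortex, correlated with one another at r = 0.91 to 0.98 over the 18 arrays. The other 3 did so at 0.86 to 0.98. Between the sets r was 0.35 to 0.69. After the group means were removed, r was -0.44 to 0.15 between the sets, 0.58 to 0.91 within the first and 0.01 to 0.64 within the second. In the second set, 1436202_at then had an r of only 0.01 with 1429060_at and 0.02 with 1427285_s_at. These correlations describe arrays that share regions, animals and a common normalization. The sets also differed in their regional pattern, which follows in part from the split as well. In saline animals the first set was higher in striatum than in frontal cortex by 0.51 to 0.83, and 3 of its 4 probe sets were higher in midbrain than in frontal cortex, by 0.25 to 0.38. All 3 probe sets of the second set were lower in saline midbrain than in saline frontal cortex (-1.03 to -0.86) and than in saline striatum (-1.59 to -1.11). In MPTP animals all 7 were lower in midbrain than in frontal cortex. A pair of probe sets designed from the same sequence record, 1452378_at and 1427285_s_at, fell into different sets. Where in the RNA each probe set lies was not analysed here.

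The arrays also carry control probe sets for 18S ribosomal RNA, and these moved with the first Malat1 set on several arrays. The 5 prime 18S probe set read 6.04, 6.04 and 6.16 in MPTP striatum against 5.45, 5.54 and 6.24 in saline striatum, and saline replicate 3 was the high array there too. In frontal cortex it read 5.84, 5.71 and 5.67 with MPTP, all above the 5.43, 5.65 and 5.55 with saline. In midbrain it read 6.02, 6.01 and 6.00 with MPTP and 6.10, 5.58 and 5.70 with saline. The middle and 3 prime 18S probe sets overlapped between MPTP and saline in all 3 regions. The 3 prime minus 5 prime difference of Actb, a measure of RNA integrity, had group means of 0.40 to 0.50, and that of Gapdh -0.09 to 0.01. The part of ribosomal RNA carry-over or RNA quality in the Malat1 values was not tested.

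**Figure D3:**
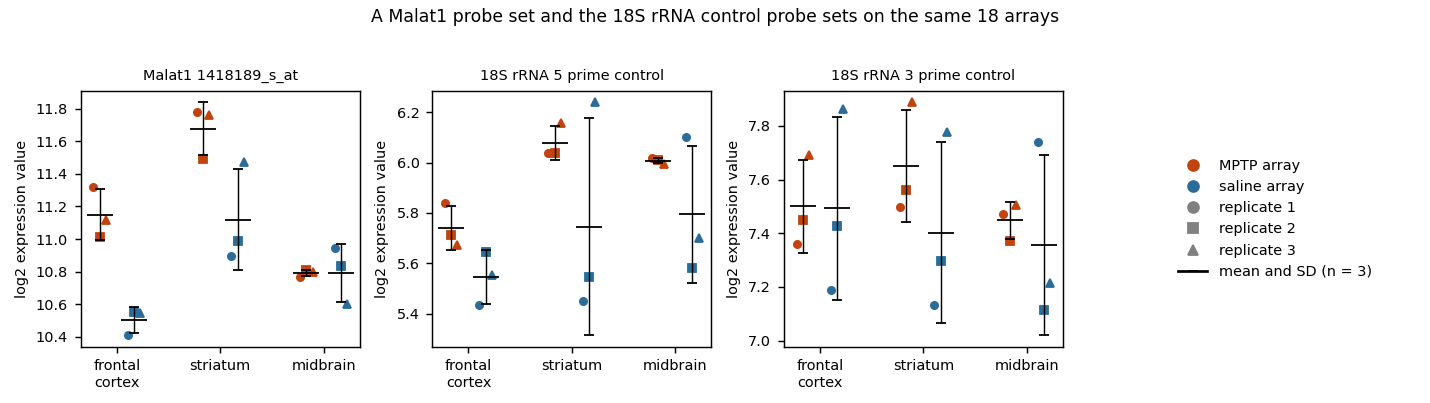
Log2 expression value of Malat1 1418189_s_at (left) and of the 5 prime and 3 prime 18S ribosomal RNA control probe sets (middle and right) on the same 18 arrays, MPTP left of saline in each region, with the mean and SD (n = 3). In striatum, saline replicate 3 is the highest of the saline arrays in all 3 panels.

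Several glial markers rose with MPTP in striatum and midbrain, and no marker was called in frontal cortex, where the most Malat1 probe sets were called. Of 45 markers of neurons, glia, vessels and regions, 15 were called in striatum, 4 in midbrain and 0 in frontal cortex, where only 0.0875% of all probe sets were called (1.96% in striatum, 4.08% in midbrain). In striatum 4 of 6 microglia, 3 of 6 astrocyte, 3 of 5 oligodendrocyte and 2 of 5 endothelial markers were higher with MPTP, among them Gfap, the intermediate filament of astrocytes, which rose by 1.17 (adjusted p = 6.9e-05). The summed linear level of the 6 microglia markers was 4030 to 5103 in MPTP striatum against 3445 to 3603 in saline striatum, and 2931 to 3562 in MPTP frontal cortex against 2835 to 2927 in saline frontal cortex. That of the 6 astrocyte markers was 9453 to 11133 in MPTP striatum against 8067 to 8769 in saline striatum, and 9244 to 9876 in MPTP frontal cortex against 8713 to 9159 in saline frontal cortex. For the 6 neuron markers it was 15162 to 17414 in MPTP striatum against 15702 to 16568 in saline striatum, and 23532 to 27039 in MPTP frontal cortex against 25372 to 26482 in saline frontal cortex. The 5 endothelial markers summed to 1202 to 1590 in MPTP striatum against 1088 to 1247 in saline striatum, and to 1150 to 1487 in MPTP frontal cortex against 1092 to 1207 in saline frontal cortex. One of them, Vwf, which encodes von Willebrand factor, averaged 7.43 in MPTP frontal cortex and 6.48 in saline frontal cortex. That difference of 0.94 was not called (adjusted p = 0.14) and was larger than that of any Malat1 probe set. In frontal cortex Flt1, Slco1a4, Pecam1 and Cldn5 differed by 0.35, 0.24, 0.08 and 0.05, none called. In midbrain Vwf differed by 0.81, also not called (adjusted p = 0.052 by limma). No marker has a level of 0 on this scale, and the part of cell composition in the Malat1 values was not tested.

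Neat1 was not called between MPTP and saline in any region, and differed strongly between regions. Its tested probe set, 1428083_at, read 8.63, 8.27 and 8.44 in MPTP frontal cortex against 8.68, 8.50 and 8.67 in saline frontal cortex. It read 9.70, 9.49 and 9.58 in MPTP striatum against 9.54, 9.67 and 9.37 in saline striatum. The midbrain values were the highest, with 10.15, 10.13 and 10.11 with MPTP, all below the 10.40, 10.27 and 10.32 with saline. The MPTP minus saline differences were -0.17, 0.06 and -0.20 (SE 0.09 each) in frontal cortex, striatum and midbrain, with adjusted p of 0.71, 0.81 and 0.22. Levels ordered as midbrain, striatum and frontal cortex with no overlap between neighbouring regions. In saline animals midbrain exceeded frontal cortex by 1.71 ± 0.09 (3.27-fold, adjusted p = 6.9e-14) and striatum by 0.80 ± 0.09, and striatum exceeded frontal cortex by 0.91 ± 0.09. In MPTP animals the same 3 differences were 1.68, 0.54 and 1.14, all called.

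The paraspeckle proteins that bind Neat1 were set beside it. Of 14 tested genes, each taken by its brightest probe set, 4 were called between MPTP and saline in midbrain, 1 in striatum and 0 in frontal cortex, all higher with MPTP, where 3.45%, 1.42% and 0.0792% of all probe sets were called higher. In midbrain these were the RNA-binding proteins Hnrnpk (0.53, adjusted p = 0.0092), Matr3 (0.46, 0.015), Taf15 (0.50, 0.040) and Rbm7 (0.44, 0.045), and in striatum Matr3 (0.45, 0.024). Their median difference in midbrain was 0.16, against 0.03 over all probe sets tested. In saline animals 1 of the 14 was higher and 6 lower in midbrain than in striatum (29.8% and 25.6% of all probe sets). Against frontal cortex, 0 were higher and 2 lower in midbrain (24.8% and 22.9%), and 5 were higher and 0 lower in striatum (20.9% and 21.6%). Levels of all 5 tested oligodendrocyte markers ran in the same regional order as Neat1 in saline animals. Their summed linear level was 24527 to 27025 in saline midbrain, 20369 to 21152 in saline striatum and 10631 to 12326 in saline frontal cortex. The part of oligodendrocyte content in the Neat1 pattern was not tested. Of 20201 probe sets of other named genes, those most like Neat1 over the 18 arrays were Cmtm5 (Pearson r = 0.99), the gap junction gene Gjb1 (0.986) and Septin8 (0.986).

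Miat had its lowest level in striatum, and neither of its probe sets was called between MPTP and saline. The brighter, 1455325_at, read 10.02, 9.91 and 10.09 in MPTP frontal cortex against 10.09, 9.80 and 10.00 in saline frontal cortex. It read 7.68, 7.96 and 7.97 in MPTP striatum against 7.91, 8.37 and 8.29 in saline striatum, and 9.49, 9.50 and 9.41 in MPTP midbrain against 9.61, 9.44 and 9.53 in saline midbrain. MPTP and saline arrays overlapped in every region. Saline striatum was below saline frontal cortex by -1.77 ± 0.11 (3.42-fold lower, adjusted p = 1.1e-12) and saline midbrain exceeded saline striatum by 1.34 ± 0.11, while midbrain was below frontal cortex by -0.44 ± 0.11. In MPTP animals these differences were -2.13, 1.60 and -0.54, all called. The dimmer Miat probe set, 1458903_at, was also called lower in striatum than in frontal cortex and midbrain, in saline and in MPTP animals. Its midbrain minus frontal cortex difference was only -0.05 in saline animals and -0.11 in MPTP animals. Neither was called, with adjusted p of 0.79 and 0.57 by limma.

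In striatum the 2 Miat probe sets had opposite signs. The MPTP minus saline difference was -0.32 ± 0.11 for 1455325_at (adjusted p = 0.12) and 0.46 ± 0.14 for 1458903_at (adjusted p = 0.10). All striatal values of 1458903_at lay below 5.18, where a value was not shown to be above background, with group means of 4.86 with MPTP and 4.41 with saline. All 6 neuron markers were also lower in saline striatum than in saline frontal cortex. Their summed linear level was 15702 to 16568 in saline striatum and 25372 to 26482 in saline frontal cortex. In saline midbrain, where both Miat probe sets were higher than in saline striatum, the sum was 15888 to 19131. The part of neuron content in the Miat pattern was not tested. The genes most like Miat over the 18 arrays were Gabra3, a GABA-A receptor subunit (r = 0.993), Sh3gl2 (0.993) and Camk1 (0.992).

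Meg3 did not differ between MPTP and saline past the test by any of its 11 probe sets. The brightest of them, 1452906_at, read 12.37, 12.24 and 12.29 in MPTP frontal cortex against 12.36, 12.30 and 12.23 in saline frontal cortex. It read 12.35, 12.03 and 12.29 in MPTP striatum against 12.13, 12.28 and 12.34 in saline striatum, and 12.53, 12.51 and 12.40 in MPTP midbrain against 12.64, 12.50 and 12.48 in saline midbrain. MPTP and saline values overlapped in all 3 regions, and the differences were 0.00, -0.02 and -0.06 (SE 0.08 each). Over the 11 probe sets the differences ran from -0.08 to 0.25 in frontal cortex, from -0.08 to 0.16 in striatum and from -0.25 to 0.11 in midbrain. The lowest adjusted p were 0.55, 0.30 and 0.11. At an unadjusted p under 0.05 there were 1, 1 and 4 of the 11, against 7.54%, 16% and 18.4% of all probe sets tested.

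Between regions, the Meg3 probe sets disagreed in direction. A set of 3, 1439380_x_at, 1452183_a_at and 1426758_s_at, was highest in striatum and lowest in midbrain. In saline animals they were higher in striatum than in frontal cortex by 0.41 to 0.44, and lower in midbrain than in frontal cortex by -0.46 to -0.35 and than in striatum by -0.90 to -0.76, all called. In MPTP animals the same 3 differences were 0.42 to 0.46, -0.76 to -0.25 and -1.22 to -0.67, all called. The other 8 probe sets were all higher in saline midbrain than in saline striatum, by 0.18 to 0.49, and 6 of the 8 were higher than in saline frontal cortex. In MPTP animals 4 of the 8 were called higher in midbrain than in striatum and 3 of the 8 higher than in frontal cortex. The sets were separated after the values were seen, by the sign of the correlation with 1452906_at, so that r between them, -0.84 to -0.29, follows in part from the split.

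Rian, transcribed downstream of Meg3, gave no call between MPTP and saline by any of its 4 probe sets. Its brightest, 1427580_a_at, read 9.64, 9.83 and 9.66 in MPTP frontal cortex against 9.70, 9.67 and 9.77 in saline frontal cortex. It read 9.94, 9.67 and 9.85 in MPTP striatum against 9.76, 10.05 and 9.74 in saline striatum, and 10.08, 10.05 and 10.03 in MPTP midbrain against 10.23, 10.05 and 10.07 in saline midbrain. The MPTP and saline values overlapped throughout. Over the 4 probe sets the differences lay between -0.17 and 0.14 in the 3 regions. In saline animals 3 of 4 were higher in midbrain than in frontal cortex, by 0.40 to 0.51 for those called, and 2 of 4 were higher than in saline striatum, 1427580_a_at by 0.26 ± 0.09 (adjusted p = 0.012) and 1452899_at by 0.63 ± 0.14 (adjusted p = 0.00037). In MPTP animals 1 of 4, 1427580_a_at, was higher in midbrain than in frontal cortex (0.34 ± 0.09, adjusted p = 0.0017), and the same 2 were higher than in striatum, by 0.23 and 0.56.

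Other imprinted genes also stood higher in midbrain. Of 16 tested, 10 were higher and 1 lower in saline midbrain than in saline frontal cortex (24.8% and 22.9% of all probe sets), and 12 were higher and 1 lower than in saline striatum (29.8% and 25.6%), with median differences of 0.66 and 0.85 against 0.01 and 0.02 over all probe sets. Dlk1, the paternally expressed ligand gene of the Meg3 locus, differed by 4.19 and 2.66 (adjusted p = 1.5e-17 and 4.2e-14). With MPTP, only Ndn, an imprinted gene outside the locus that encodes necdin, was called among the 16, with a fall of -0.67 in striatum (adjusted p = 0.040).

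Snhg11 was bright in all regions, and 1 of its 2 probe sets was called with MPTP for the mean over regions. That probe set, 1437311_at, read 11.33, 11.18 and 11.30 in MPTP frontal cortex, all above the 11.01, 10.91 and 11.05 in saline frontal cortex. It read 11.23, 11.10 and 11.35 in MPTP striatum against 10.90, 10.91 and 11.18 in saline striatum, where saline replicate 3 overlapped the MPTP arrays, and 11.46, 11.32 and 11.33 in MPTP midbrain against 11.40, 11.21 and 11.41 in saline midbrain. The differences were 0.28, 0.23 and 0.03 (SE 0.08 each), with adjusted p of 0.26, 0.16 and 0.88, and the mean over regions was 0.18 ± 0.05 (adjusted p = 0.016). This call was lost without saline striatum replicate 1 or 2, and in an alternative added after the data were seen, with adjusted p of up to 0.10. The brighter probe set, 1434292_at, read 11.32, 11.34 and 11.56 in MPTP frontal cortex against 11.49, 11.33 and 11.31 in saline frontal cortex. It read 11.37, 11.02 and 11.24 in MPTP striatum against 11.22, 11.27 and 11.29 in saline striatum, and 11.53, 11.49 and 11.49 in MPTP midbrain against 11.49, 11.16 and 11.18 in saline midbrain. Its mean over regions was 0.07 ± 0.05 (adjusted p = 0.43), so that the 2 probe sets of the RNA differ in their call.

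**Figure D4:**
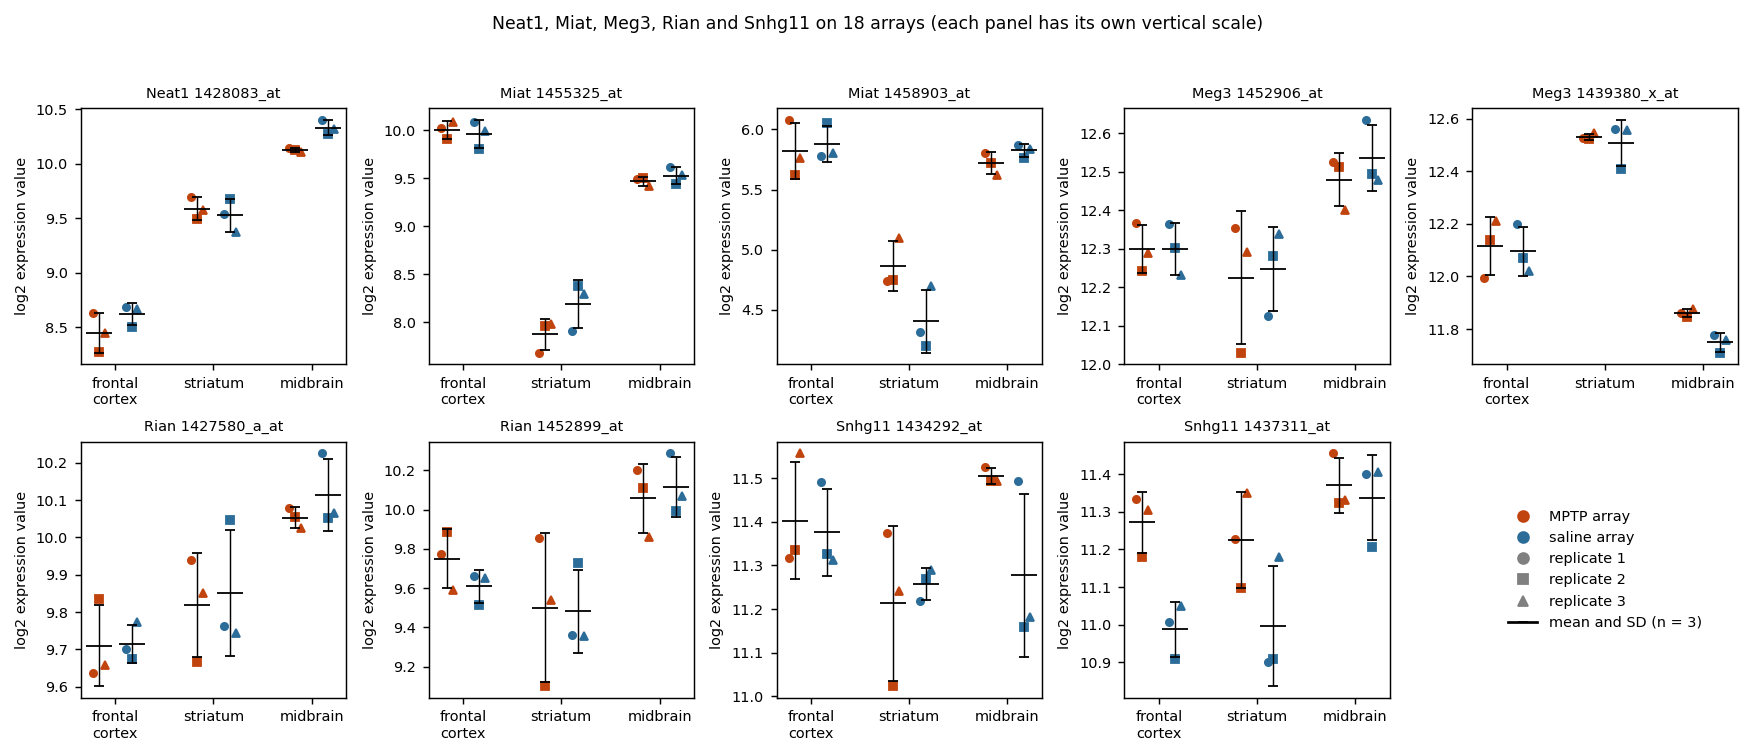
Log2 expression value of 9 probe sets of Neat1, Miat, Meg3, Rian and Snhg11 on each array by region, MPTP left of saline, with the mean and SD (n = 3) and a vertical scale for each panel. Neat1 is highest in midbrain, Miat lowest in striatum, and the 2 Meg3 probe sets shown differ in their regional order.

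Separation of all arrays of a group was also counted. In frontal cortex 5 of the 27 probe sets had all MPTP arrays above all saline arrays (10.6% of all tested) and 0 had all below (3.55%). In striatum there were 3 above (10%) and 1 below (12.4%), and in midbrain 2 above (12.2%) and 8 below (6.11%). Between regions the calls were many, as they were over the whole array. In MPTP animals 12 of the 27 were called between striatum and frontal cortex (46.9% of all), with 10 higher in striatum (20%) and 2 lower (27%). Between midbrain and frontal cortex there were 16 (51%), with 5 higher in midbrain (26.3%) and 11 lower (24.7%), and between midbrain and striatum 20 (56.1%), with 10 higher (32.9%) and 10 lower (23.2%). In saline animals 12 were called between striatum and frontal cortex (42.4%), with 10 higher (20.9%) and 2 lower (21.6%). Between midbrain and frontal cortex there were 21 (47.7%), with 14 higher (24.8%) and 7 lower (22.9%), and between midbrain and striatum 24 (55.3%), with 14 higher (29.8%) and 10 lower (25.6%).

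The other long non-coding RNAs on the array were mostly not called with MPTP. Of 29 tested, 2 were called in midbrain, 1 in striatum and 0 in frontal cortex, shares near those of all probe sets (4.08%, 1.96% and 0.0875%). Snhg14, the transcript that runs through the Prader-Willi imprinted region, was higher with MPTP in striatum (0.50, adjusted p = 0.036) and midbrain (0.58, adjusted p = 0.010), and Tug1 was higher in midbrain (0.33, adjusted p = 0.049). Their median differences were 0.00, -0.03 and 0.02 in frontal cortex, striatum and midbrain, against 0.04, -0.02 and 0.03 over all probe sets. Of 19 nuclear speckle and splicing proteins tested, which share their compartment with Malat1, 0 were called in any single region. For the mean over regions 2 of the 19 were called, both higher, a share near that of all probe sets (8.07% higher, 10.8% either way). These were the splicing factors Srsf11 and Sf3b1 (0.16 each, adjusted p = 0.034 and 0.042). In saline animals 8 of the 19 were higher in striatum than in frontal cortex and 0 lower (20.9% and 21.6% of all probe sets), among them the speckle scaffold gene Son (0.30) and the splicing kinase gene Clk1 (0.58). Over the 18 arrays the genes most like Malat1 1438403_s_at were the translation factor Eif5 (r = 0.906), the transcription factor Tef (0.905) and the RNA helicase Ddx6 (0.873). For Meg3 1452906_at they were Pgd (0.904), Crim1 (0.903) and Taf7 (0.901), for Rian Lsm6 (0.929), S100a1 (0.926) and Commd1 (0.923), and for Snhg11 Tpi1 (0.879), Ddx3x (0.877) and Nudt21 (0.867).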

How the data were processed

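Total RNA of frontal cortex, striatum and midbrain from MPTP-treated and saline-treated mice was labelled and hybridised to Affymetrix arrays, per the labels' protocols. The deposited log2 values, 1 per probe set and array, were produced by the authors with RMA (per the submitters' processing notes), in a version not given in the sources used here. This method usually equalises probe intensities across arrays before summarising them, so a shift shared by most genes of a group may be lost. The deposited values still differed between arrays, with medians of 5.14 to 5.21 and interquartile ranges of 3.37 to 3.65. Their range, 2.48 to 14.2, showed the base of the logarithm. Gene symbols came from the array annotation, updated by Entrez ID through the mouse annotation GRCm38.p6 for 34754 of the 34958 probe sets that named 1 gene. No member probe set named several genes.

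Limma 3.58.1 in R 4.3.3 was fitted to 23992 probe sets over all 18 arrays with a mean per group and a variance trend with intensity, which gave 23.6 degrees of freedom after moderation. For the mean over regions arrays with the same treatment and replicate number entered as 1 animal, a random block (correlation 0.0113). The labels give 3 animals per treatment and call the arrays biological replicates, but do not say that a number marks 1 animal in each region. With 3 arrays per group, their number limits the precision. Each of the 13 comparisons was adjusted separately. The procedure was tested on simulated data. Alternatives covered the filter, a second quantile normalization, array centring, the variance model, regions fitted alone, blocks and leaving out each array in turn.

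The members and lists were chosen with earlier results of these data known. Values on every array are given for the brightest probe set of each RNA and for each probe set called in a contrast of MPTP with saline or in a difference between responses. List genes were taken by their brightest probe set, and up to 4 called genes of smallest p, or 2 of smallest p if none was called, could be named. Likeness was Pearson r over the 18 arrays. Promoters came from the RefSeq table, which was matched by Entrez ID for 5 of 6 genes.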

Additional observations from a re-analysis of the deposited data

How the results depend on the processing

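Counts of called probe sets among the 27 were recomputed under each alternative, and no call changed sign. In frontal cortex the 4 calls became 1 after a second quantile normalization and 0 without the intensity trend. In striatum the 3 became 1 without the trend and 1 with the arrays of the region alone. In midbrain the 1 became 0 without a filter, 6 (all lower) after a second quantile normalization, 0 without the trend and 0 with the region alone. For the mean over regions the 6 became 10 after a second quantile normalization (5 higher, 5 lower). Leaving out 1 array gave 0 to 4 calls in frontal cortex, 0 to 5 in striatum, 0 to 2 in midbrain and 3 to 6 for the mean over regions. It gave 0 to 2 for the difference of midbrain minus frontal cortex in response and 0 to 3 for midbrain minus striatum, and 5 calls in striatum and 3 in that last difference appeared without saline striatum replicate 3. An alternative chosen after the data were seen, which dropped in each region the saline array with the narrowest interquartile range, gave 0 calls in frontal cortex, 1 in striatum (Miat 1455325_at, lower) and 2 in midbrain. The causes of these changes were not tested. Of the calls as reported, 0 of 4, 0 of 3 and 0 of 1 held in every alternative in frontal cortex, striatum and midbrain, and 3 of 6 for the mean over regions. Between saline regions 11 of 12, 16 of 21 and 17 of 24 held, and between MPTP regions 10 of 12, 15 of 16 and 17 of 20. With the replicate number as a block, 4, 3 and 1 probe sets were called in frontal cortex, striatum and midbrain, as without it, and the mean over regions gave 6 with no block by animal and 5 from 1 mean per animal. Same-numbered arrays of MPTP and saline in a region deviated together at r over 0.1 in 3 of 9 pairs (r -0.164 to 0.267), and those of 2 regions of one treatment in 9 of 18 (-0.241 to 0.351), so the numbers were not taken to pair MPTP with saline arrays. Between regions, all 3 pairs were over 0.1 for saline frontal cortex with saline midbrain (0.225 to 0.351) and for MPTP striatum with MPTP midbrain (0.114 to 0.168), and in 12 of 18 pairs the same number gave the highest r. The block by animal for the mean over regions rests on reading the number as an animal. Values under 5.18, as for Miat 1458903_at in striatum and the second Neat1 probe set, were not shown to be above background.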
